A study of Bos grunniens with 18 samples.

Results

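The genes of the T cell receptor complex and its coreceptors were followed in the whole blood of yak cows in 3 reproductive stages, written Y-A for anestrus, Y-E for estrus and Y-P for pregnancy. A list of 10 genes was used: CD3D, CD3E, CD3G, CD247, CD4, CD8A, CD8B, CD5, CD6 and CD28. Of the 20607 genes in the deposited table, 7 were found by gene name, 6 spelled exactly as the symbol and CD3E spelled CD3e. The other 3 carried only an identifier as their name. CD247 (ENSBGRG00000006979) was recognised by its description, and CD8A (ENSBGRG00000018381) and CD8B (ENSBGRG00000018232) by their orthology entry, their T cell receptor pathway annotation and their place next to each other and near RMND5A, where RefSeq also puts this pair. Counts of genes below therefore give the 7 found by name and the 3 found by annotation apart. All 10 were among the 14508 genes that passed the filter on low counts.

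Each stage had 6 libraries from EDTA blood lysed in TRIzol LS. The animals were adult cows of 4 to 8 years, with Y-A cows not cycling, Y-E cows brought into heat with a progesterone pessary, cloprostenol and GnRH and inseminated, and Y-P cows pregnant. The methods describe 6 cows followed through the stages, so estrus here is a synchronised estrus and the samples of different stages may share animals. The labels do not say which animal each replicate number stands for.

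A T cell recognises antigen with a variable pair of chains, alpha and beta or gamma and delta, that have almost no tail inside the cell. The signal is passed on by the CD3 delta, epsilon and gamma chains and by the zeta chain, encoded by CD247, whose cytoplasmic motifs are phosphorylated by the kinase LCK and then bind the kinase ZAP70. CD4 binds MHC class II and CD8 binds MHC class I, and both bring LCK to the receptor. CD5 and CD6 are scavenger-receptor-like proteins that tune the strength of this signal, and CD28 gives the costimulatory signal on binding CD80 or CD86. The blood of cattle and their relatives is known for many gamma-delta T cells, most of which carry CD3 without CD4 or CD8.

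In the build of the deposited table, the 3 CD3 genes lay in a row on chromosome 13. CD3G stood at 58523226-58534397 on the minus strand, CD3D at 58536388-58540274 on the plus strand and CD3E at 58547045-58558630 on the minus strand, with gaps of 1990 and 6770 bp between them. CD247 was on chromosome 3 (17005873-17096485, minus), CD4 on chromosome 5 (110670343-110687084, minus) and CD28 on chromosome 2 (49210144-49245192, minus). CD8B (chromosome 9, 70169541-70190364, plus) and CD8A (chromosome 9, 70253132-70259120, plus) were 62767 bp apart. CD5 (chromosome 29, 12516207-12543966, minus) and CD6 (chromosome 29, 12613620-12667075, minus) were 69653 bp apart. CD6 overlapped SLC15A3 on the opposite strand. The kit marked strand, but whether the counting used it was not given in the sources used here, so reads of CD6 and SLC15A3 may not be told apart.

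Libraries held 30247267 to 48401076 counts. Hemoglobin genes made up 3.10 to 16.7% of a Y-A library, 0.0899 to 8.36% of a Y-E library and 0.0272 to 0.376% of a Y-P library. Y-E replicate 6 stood apart from its stage, since the other 5 Y-E libraries reached at most 0.713%. Results in which its removal changes a call are therefore given with and without it. Levels between genes are given in FPKM, which is per gene length, and differences between stages in CPM, the counts of a gene scaled to a common library total, after TMM normalization. Changes were tested with edgeR's quasi-likelihood test on the counts, and a gene passed when its Benjamini-Hochberg adjusted p was under 0.05 over all 14508 genes.

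The order of the FPKM levels was nearly the same in the 3 stages. In Y-A, CD3E (161 ± 25.6, SD, n = 6) and CD3D (155 ± 23.0) were highest, followed by CD4 (120 ± 19.4) and CD247 (108 ± 20.9). CD6 (60.2 ± 9.12) and CD5 (53.9 ± 7.60) came next, then CD3G (39.5 ± 7.33), CD8A (31.3 ± 6.96) and CD8B (31.0 ± 8.00), and CD28 was lowest (16.4 ± 2.88). The gaps between CD3E and CD3D, between CD4 and CD247, between CD6 and CD5 and between CD8A and CD8B were smaller than the larger SD of the pair. In Y-E CD3D (163 ± 17.5) and CD3E (158 ± 21.6) exchanged places, within their spread. In Y-P, CD247 (189 ± 53.0) and CD4 (188 ± 31.1) stood side by side, and CD3G (75.0 ± 21.0) came within its SD of CD5 (87.9 ± 15.8). CD8A (38.4 ± 9.69), CD8B (34.8 ± 14.1) and CD28 (20.4 ± 4.12) stayed the 3 lowest in Y-P. CD3E was exceeded by 406 genes of the table in Y-A and by 267 in Y-P, and CD28 by 4586 and 4303.

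**Figure D1:**
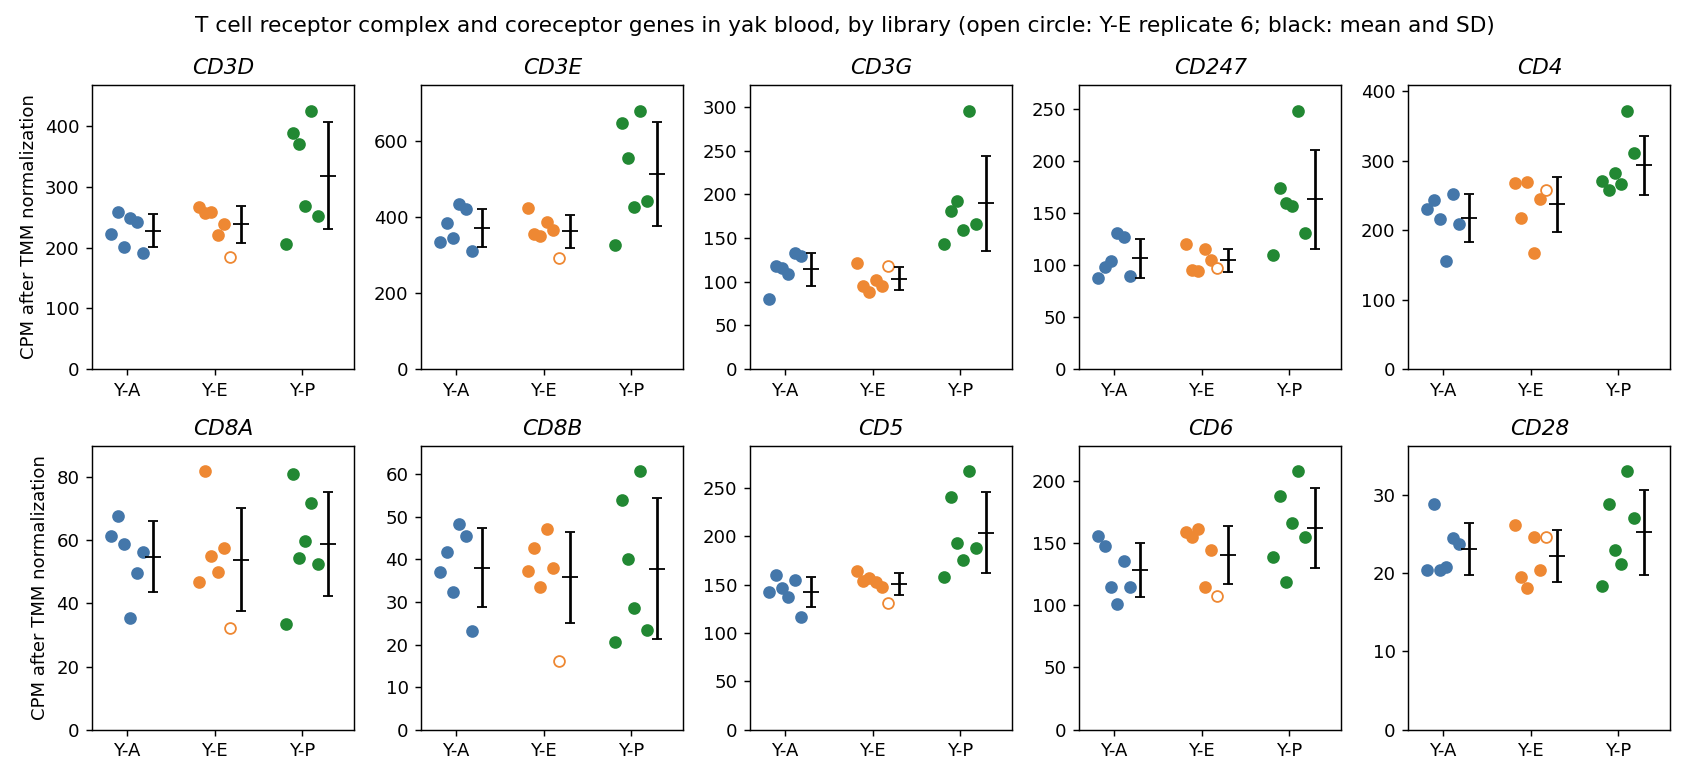
CPM after TMM normalization (vertical axes, from 0) of the 10 genes in each of the 6 Y-A, 6 Y-E and 6 Y-P libraries, 1 point per library, with the mean and SD of the stage in black and Y-E replicate 6 as an open circle. CD3G lay above every Y-A and Y-E library in all 6 Y-P libraries, while CD8A and CD8B covered about the same range in the 3 stages.

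Estrus and anestrus were compared first, which asks whether these genes moved as cows came into heat. None of the 7 genes found by name and none of the 3 found by annotation passed, beside 0.0207% of all tested genes. The log2 fold changes of Y-E over Y-A ran from -0.14 for CD3G (95% interval -0.47 to 0.19) to 0.13 for CD6 (-0.18 to 0.44), and the adjusted p was 0.999 for each of them. CD3E, the chain that pairs with both CD3D and CD3G, had a lowest, median and highest CPM of 311, 365 and 435 in Y-A and of 293, 362 and 424 in Y-E. CD4 had 156, 223 and 252 in Y-A and 166, 251 and 269 in Y-E. In both genes the stages overlapped over nearly their whole range. CD8B had the widest interval (-0.66 to 0.49), and the bounds of the other 9 genes lay between -0.47 and 0.44. With edgeR, 0 of the 10 had an unadjusted p under 0.05, and DESeq2 also passed none of them.

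Pregnancy was then compared with each of the other stages, which asks whether the receptor genes differ in a pregnant cow. CD3G and CD247 rose over both stages and CD3E over Y-E. In whole blood, more cells of a type and more RNA per cell cannot be told apart. CD3G, the gamma chain, had a lowest, median and highest CPM of 80.5, 117 and 133 in Y-A, of 88.2, 98.6 and 121 in Y-E, and of 143, 173 and 296 in Y-P. Every Y-P library was above every library of the other stages. The rise was 1.66-fold over Y-A (log2 0.73, SE 0.16, adjusted p = 0.0139) and 1.84-fold over Y-E (log2 0.88, SE 0.16, adjusted p = 0.0017). CD3G and CD4 were the only ones of the 10 whose Y-P values lay wholly above Y-A, where 1.23% of all tested genes did so, and CD3G alone lay wholly above Y-E, where 2.19% did.

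CD247, the zeta chain, had 87.9, 101.3 and 131 CPM as its lowest, median and highest in Y-A, 94.4, 100.9 and 119.9 in Y-E, and 109.8, 158 and 248 in Y-P. Y-P exceeded every Y-A library in 4 of 6 libraries and every Y-E library in 5 of 6. CD247 rose 1.53-fold over Y-A (log2 0.62, SE 0.16, adjusted p = 0.0304) and 1.56-fold over Y-E (log2 0.65, SE 0.16, adjusted p = 0.0115). The first of these calls was lost when Y-A replicate 1, 2 or 6, or Y-P replicate 2, 4 or 5, was left out, and with only Y-A and Y-P in the fit (adjusted p = 0.0884), while the second held without any single library.

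CD3D and CD3E, which pair with each other in the complex, had the highest levels of the list but smaller shifts. CD3E had 327, 499.8 and 681 CPM as its lowest, median and highest in Y-P, beside the Y-A and Y-E values above. The log2 difference of CD3E was 0.47 over Y-A (SE 0.15, adjusted p = 0.0768), which did not pass, and 0.50 over Y-E (SE 0.15, adjusted p = 0.0354), which passed. Without Y-E replicate 6, the Y-E library lowest in CD3E, the second comparison no longer passed (log2 0.45, adjusted p = 0.0707), and it also failed without Y-A replicate 1 or 6, Y-E replicate 2, 3 or 5, or Y-P replicate 2, 3 or 5. CD3D had 192, 232 and 259 CPM in Y-A, 185, 248 and 267 in Y-E, and 207, 320.0 and 425 in Y-P, with 4 of 6 Y-P libraries above every library of either other stage. Its log2 differences of 0.49 over Y-A (SE 0.16, adjusted p = 0.0683) and 0.42 over Y-E (SE 0.16, adjusted p = 0.0766) did not pass. The spread within pregnancy was wide for both genes, and Y-P replicate 1 was at the level of the other stages. When it was left out, CD3D and CD3E passed over Y-A and CD3D over Y-E. With the replicate number as a block, CD3D also passed over Y-A (adjusted p = 0.0490), and with library size alone or limma on FPKM it passed in both comparisons. Under DESeq2, CD3D (adjusted p = 0.0303) and CD3E (adjusted p = 0.0350) passed over Y-A. CD3E also passed over Y-A with library size alone (adjusted p = 0.0259) and with limma on log2(FPKM + 0.1) (adjusted p = 0.0123) and log2(FPKM + 1) (adjusted p = 0.0114). CD3E did not pass over Y-E with only Y-E and Y-P in the fit (adjusted p = 0.0554).

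Of the coreceptors, CD4 was higher in pregnancy by values that did not overlap with anestrus, and the CD8 chains showed no detectable shift. CD4 had 258, 277 and 372 CPM as its lowest, median and highest in Y-P. Each Y-P library was above the highest Y-A library, but the log2 difference of 0.43 (SE 0.14, adjusted p = 0.0642) did not pass. It passed under DESeq2, with library size alone, with limma on FPKM, with the replicate number as a block (adjusted p = 0.0260) and without Y-E replicate 4 (adjusted p = 0.0436). Over Y-E, with 4 of 6 Y-P libraries above every Y-E library, the difference of 0.31 (SE 0.14, adjusted p = 0.136) did not pass either, but it passed with library size alone (adjusted p = 0.0229) and with limma on log2(FPKM + 0.1) (adjusted p = 0.0165) and log2(FPKM + 1) (adjusted p = 0.0157).

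CD8A, the alpha chain, had 35.3, 57.5 and 67.6 CPM in Y-A, 32.0, 52.5 and 81.8 in Y-E, and 33.3, 57.0 and 81.0 in Y-P. CD8B, the beta chain, had 23.1, 39.4 and 48.3 CPM in Y-A, 16.1, 37.6 and 47.1 in Y-E, and 20.6, 34.2 and 60.7 in Y-P. The 3 stages overlapped over nearly their whole range in both chains. Log2 differences of Y-P were 0.10 over Y-A (95% interval -0.35 to 0.55) and 0.13 over Y-E (-0.32 to 0.57) for CD8A, and -0.01 (-0.58 to 0.57) and 0.08 (-0.49 to 0.66) for CD8B. The upper bounds, 0.55 to 0.66, lie above the log2 changes of CD5 given next, so these intervals do not exclude a rise of that size in the CD8 chains.

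CD5, which is also carried by some B cells, rose in pregnancy. It had 116, 144 and 160.3 CPM as its lowest, median and highest in Y-A, 131, 153 and 164 in Y-E, and 158, 191 and 267 in Y-P, and 5 of 6 Y-P libraries exceeded every library of either other stage. The change was 1.43-fold over Y-A (log2 0.51, SE 0.12, adjusted p = 0.0198) and 1.35-fold over Y-E (log2 0.43, SE 0.12, adjusted p = 0.0206). Without Y-A replicate 1 or 6, or with only Y-A and Y-P in the fit (adjusted p = 0.0691), the first did not pass, and without Y-P replicate 5 the second did not.

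CD6, the neighbour of CD5 on chromosome 29, had 101.3, 125 and 156 CPM in Y-A, 107, 149.5 and 161 in Y-E, and 118, 160.4 and 207 in Y-P. Its log2 differences of 0.34 over Y-A (adjusted p = 0.174) and 0.21 over Y-E (adjusted p = 0.371) did not pass. Over Y-A, CD6 passed with library size alone (adjusted p = 0.0383) and with limma on log2(FPKM + 0.1) (adjusted p = 0.0219) and log2(FPKM + 1) (adjusted p = 0.0205). CD28, the costimulatory receptor, had 20.4, 22.3 and 28.8 CPM in Y-A, 18.05, 22.5 and 26.1 in Y-E, and 18.4, 24.9 and 33.0 in Y-P. The stages overlapped, with log2 differences of 0.13 over Y-A (95% interval -0.18 to 0.43) and 0.18 over Y-E (-0.12 to 0.49).

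By count, 2 of the 7 genes found by name passed as higher in Y-P than in Y-A (CD3G and CD5), beside 2.22% of all tested genes in that direction, and 3 passed over Y-E (CD3E, CD3G and CD5), beside 5.77%. Without Y-E replicate 6 the latter count was 2, beside 5.66%. Of the 3 found by annotation, CD247 passed in both. None passed as lower, where 3.61% and 8.68% of all genes did. The median log2 difference over the 10 genes was 0.45 over Y-A and 0.36 over Y-E, against medians of 0.03 and 0.04 over all tested genes. After TMM normalization none of the 10 reached the log2 fold change of 1 that the study also required of its calls, which 1.43% and 2.67% of the tested genes met together with the adjusted p. CD3G reached it over Y-E with library size alone (1.01), with limma on log2(FPKM + 0.1) (1.03) and on log2(FPKM + 1) (1.01). Since both comparisons share the Y-P libraries, they are not separate evidence. Y-P replicate 5 was the highest Y-P library in 9 of the 10 genes and Y-P replicate 1 the lowest in 8.

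**Figure D2:**
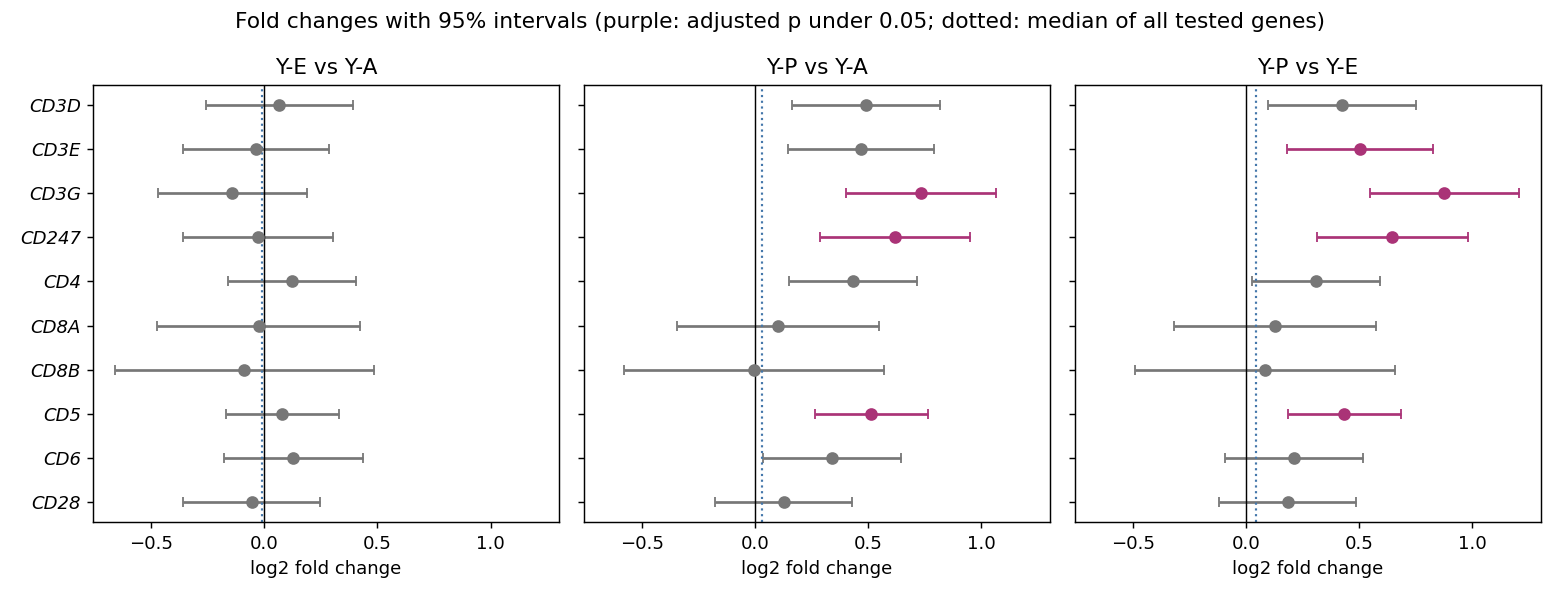
Log2 fold change with its 95% interval (horizontal axes) of the 10 genes in the 3 comparisons, in purple where the adjusted p was under 0.05, with the median of all tested genes dotted. All 10 points sit near 0 in Y-E vs Y-A, and CD3G sits farthest right in both pregnancy comparisons, at 0.73 and 0.88.

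The size of these differences moved with the scaling. With library size alone, the median of all genes shifted to 0.19 over Y-A and 0.18 over Y-E, and with limma on log2(FPKM + 0.1) to 0.22 and 0.21. Relative to that median, CD3G differed by 0.69 over Y-A with library size alone and by 0.70 in the main fit, and CD247 by 0.58 and 0.59. CD8B turned from -0.01 to 0.13 over Y-A with library size alone, but to -0.06 relative to the median. Leaving the 6 hemoglobin genes out of the library sizes changed no call among the 10.

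**Figure D3:**
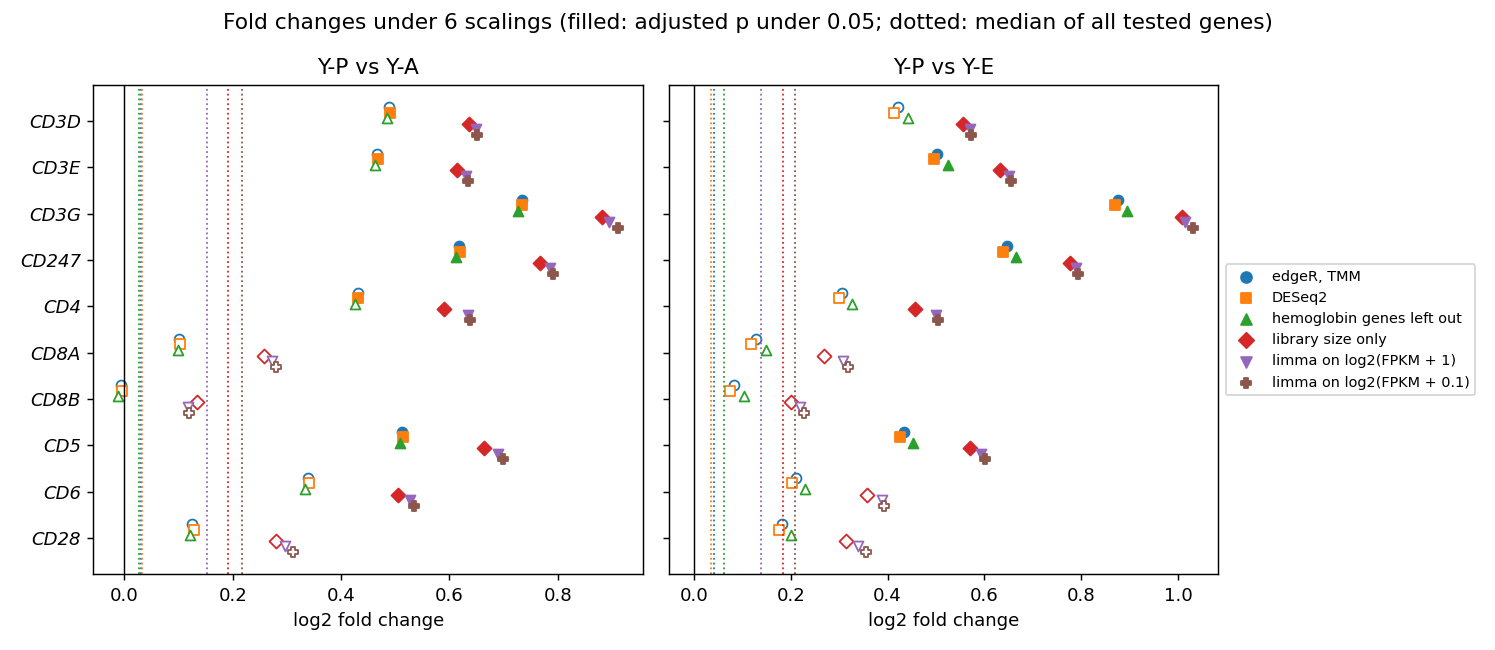
Log2 fold change (horizontal axes) of the 10 genes in pregnancy against anestrus and estrus under 6 scalings, filled where the adjusted p was under 0.05, with the median of all tested genes under each scaling dotted in its colour. Library size and FPKM values shift the genes and the medians to the right together, and CD3G, CD247 and CD5 are filled under all 6.

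Ratios of FPKM within a library set the chains against each other without the scaling between libraries. CD3D to CD3E was close to 1, with means of 0.967 ± 0.0717 (SD, n = 6) for Y-A, 1.04 ± 0.101 for Y-E and 0.978 ± 0.0533 for Y-P, so the stages differed by less than their spread. CD3G to CD3E had a lowest, median and highest of 0.192, 0.250 and 0.332 in Y-A, 0.202, 0.212 and 0.322 in Y-E, and 0.223, 0.299 and 0.351 in Y-P. The single high Y-E value was replicate 6, and the other 5 Y-E libraries ended at 0.229, so that 5 of the 6 Y-P libraries were above them. CD247 to CD3E ran from 0.597 to 0.706 in Y-A and from 0.629 to 0.857 in Y-P, with overlap. CD5 to CD3E changed little, at 0.338 ± 0.0375 for Y-A, 0.366 ± 0.0242 for Y-E and 0.354 ± 0.0405 for Y-P.

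CD4 to CD8A, a measure often used for the balance of helper and cytotoxic cells, was 3.50, 3.62 and 4.93 as its lowest, median and highest in Y-A, 2.58, 4.43 and 7.82 in Y-E, and 3.09, 5.03 and 7.90 in Y-P. The median was highest in Y-P, but the Y-P libraries covered the whole Y-A range. Without replicate 6, the highest Y-E ratio was 5.58. CD8A to CD3E was 0.201 ± 0.0558 for Y-A, 0.197 ± 0.0598 for Y-E and 0.152 ± 0.0212 for Y-P, and CD28 to CD3E was 0.103 ± 0.0178, 0.101 ± 0.0193 and 0.0821 ± 0.0120. Both means were lowest in Y-P, within overlapping ranges. CD4 to CD3E was 0.766 ± 0.155 for Y-A, 0.855 ± 0.198 for Y-E and 0.773 ± 0.196 for Y-P. CD8A to CD8B ran from 0.514 to 1.72 for Y-A, 0.745 to 1.40 for Y-E and 0.833 to 1.59 for Y-P, a wider spread between libraries than the difference between the stage means.

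**Figure D4:**
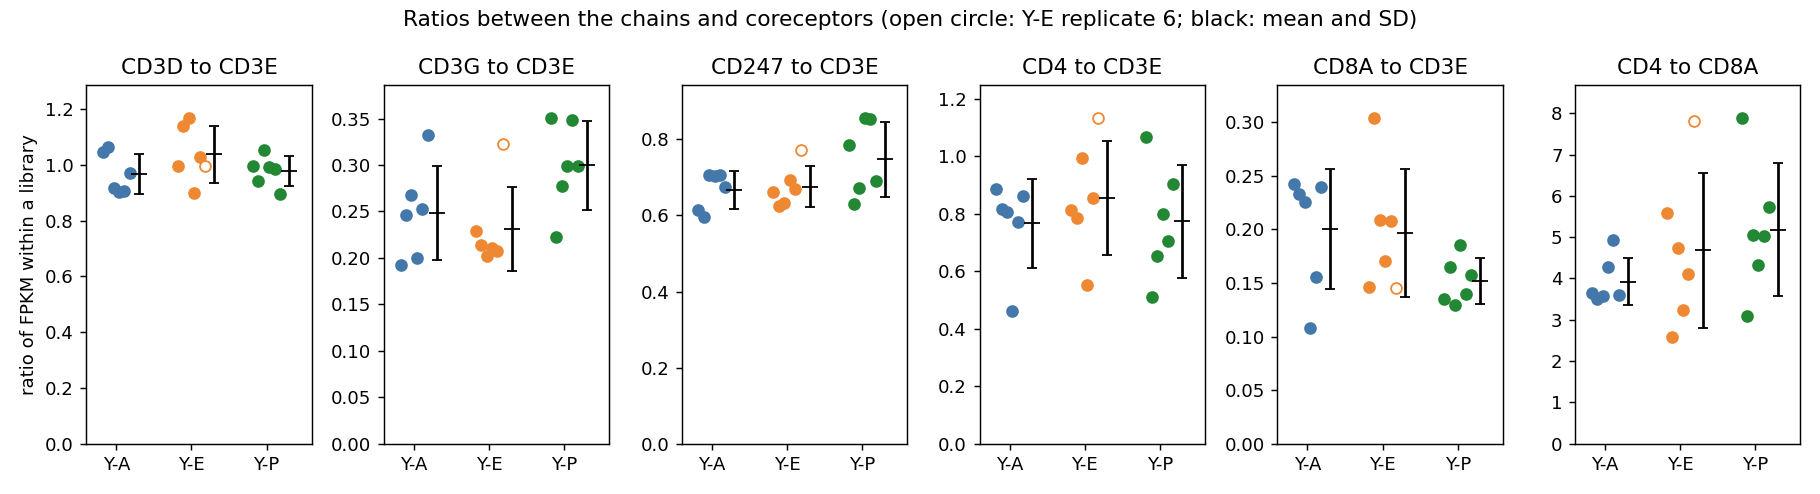
Ratio of FPKM values within a library (vertical axes, from 0) for 6 pairs of genes, 1 point per library, with the mean and SD of each stage in black and Y-E replicate 6 as an open circle. CD3D to CD3E stays near 1 throughout, CD3G to CD3E has its highest median in Y-P, 0.299, with Y-A reaching 0.332 and the open circle 0.322, and CD4 to CD8A spreads from 2.58 to 7.90.

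The genes that moved most closely with CD3E over the 18 libraries were ranked by the SD of their log2 ratio to it, a description in which all genes share the same libraries. Over 14507 genes the median SD was 0.546. CD3D was the closest of all (SD 0.114, rank 1), CD5 was at rank 4 (0.145) and CD247 at rank 10 (0.152). CD28 (0.269, rank 690), CD3G (0.296, rank 1133), CD6 (0.311, rank 1398), CD4 (0.346, rank 2135), CD8B (0.379, rank 2947) and CD8A (0.393, rank 3294) were farther away. CD3G, the neighbour of CD3D, thus followed CD3E less closely than CD5 or CD247 did. At rank 5 stood ENSBGRG00000002922, a beta chain row with no gene name that is described below. The 5 nearest genes outside the list that carry a gene name were POLR2E, an RNA polymerase subunit (0.129), SIT1, a T cell signalling adaptor (0.141), PARK7 (0.147), TP53I3 (0.147) and PSMC3, a proteasome subunit (0.149). The own SD of log2 CPM of CD3E was 0.340. The ratios of the 5 nearest named genes varied less than that, as they were picked for a small SD. Those of CD4, CD8A and CD8B varied more. Leaving out Y-E replicate 6 kept CD3D at rank 1 and CD247 at rank 10. Of the 5 nearest named genes, picked for likeness to CD3E, PARK7 (log2 0.57, adjusted p = 0.0146) and SIT1 (0.54, adjusted p = 0.0266) passed as higher over Y-E, beside 5.77% of all tested genes, and none over Y-A.

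Downstream of the receptor, a list of 30 T cell receptor signalling genes had 27 in the table, and all 27 were tested. None passed between Y-E and Y-A (4 had an unadjusted p under 0.05). Over Y-A, 3 rose in Y-P (11.1%, beside 2.22% of all tested genes) and none fell (beside 3.61%). Over Y-E, 5 rose (18.5%, beside 5.77%) and 4 fell (14.8%, beside 8.68%). ZAP70, the kinase that binds the phosphorylated chains, rose from 196 ± 25.4 CPM in Y-A and 197 ± 22.0 in Y-E to 268 ± 39.3 in Y-P (log2 0.46, adjusted p = 0.0285 over Y-A and log2 0.45, adjusted p = 0.0150 over Y-E). LAT, the membrane adaptor that ZAP70 phosphorylates, rose by log2 0.54 over Y-A (adjusted p = 0.0303) and 0.50 over Y-E (adjusted p = 0.0222). The kinase PRKCQ rose in both, and the adaptor SIT1 and the kinase LCK over Y-E. Without Y-E replicate 6, 4 rose over Y-E. LCK and SIT1 (adjusted p = 0.0509) no longer passed there, while MALT1 passed.

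The genes of the list that fell over Y-E were NFATC3, a transcription factor (log2 -0.57, adjusted p = 0.0134), VAV1, an exchange factor (-0.37, adjusted p = 0.0149), CSK, a kinase that restrains LCK, and LCP2, the adaptor SLP-76 (-0.34, adjusted p = 0.0457). These are also expressed in other white cells. PTPRC (CD45), the highest of the list in FPKM, showed log2 differences of 0.09 over Y-A and 0.05 over Y-E. The median of the 27 was 0.11 over Y-A and 0.05 over Y-E, near the 0.03 and 0.04 of all genes and below the 0.45 and 0.36 of the 10 receptor and coreceptor genes.

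Among 13 tested costimulatory and coinhibitory receptors, CD27, a receptor of resting T cells and memory B cells, rose from 87.4 ± 21.7 CPM in Y-A to 136 ± 28.6 in Y-P (log2 0.64, adjusted p = 0.0351) and from 84.0 ± 16.9 in Y-E (0.70, adjusted p = 0.0114). BTLA, an inhibitory receptor of B and T cells, rose over Y-E (0.60, adjusted p = 0.0276) and did not pass over Y-A (0.42, adjusted p = 0.160). The other members did not pass in these comparisons. The list thus had 7.69% rising over Y-A, beside 2.22% of all tested genes, and 15.4% over Y-E, beside 5.77%. Its median was 0.28 over Y-A and 0.21 over Y-E. None of the 7 tested ligands passed in any comparison (with edgeR, 2 had an unadjusted p under 0.05 in each pregnancy comparison and 0 in Y-E vs Y-A). CD48 showed log2 differences of 0.17 over Y-A and 0.28 over Y-E, and CD80, a CD28 ligand, 0.08 and -0.06. Of 4 tested controls of LCK and CSK, only PTPN11 passed, as higher over Y-E (0.28, adjusted p = 0.0350), beside 5.77% of all tested genes. PTPN6 and UNC119, the highest of these in FPKM, showed -0.05 and -0.11 over Y-A and -0.24 and -0.24 over Y-E.

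The antigen-binding chains were read from rows of the table chosen after its annotation had been seen. The constant gene of the delta chain, TRDC, had 222 ± 26.9 CPM in Y-A, against 213 ± 48.1 in Y-E and 283 ± 83.8 in Y-P. Its log2 differences of 0.35 over Y-A (adjusted p = 0.237) and 0.41 over Y-E (adjusted p = 0.122) did not pass, and neither did SOX13, a transcription factor of gamma-delta cells. The 22 rows that share the orthology entry of an alpha variable gene summed to medians of 484 CPM in Y-A, against 523 in Y-E and 615 in Y-P, and none of the 21 tested passed (with edgeR, 0, 1 and 2 had an unadjusted p under 0.05 in Y-E vs Y-A, over Y-A and over Y-E). The 24 beta rows summed to medians of 299.7 CPM in Y-A, against 343 in Y-E and 492 in Y-P. Of the 20 tested, 3 rose over Y-A, beside 2.22% of all tested genes, and 2 over Y-E, beside 5.77%. The highest beta row, ENSBGRG00000002922, rose by log2 0.65 over Y-A (adjusted p = 0.0258) and 0.59 over Y-E (adjusted p = 0.0189). These rows share 1 orthology entry and may be near copies of each other, so how their reads were shared out is uncertain.

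In the wider T cell receptor pathway of KEGG, members left out, 129 of 141 rows were tested, and 7 rose and 3 fell over Y-A while 8 rose and 17 fell over Y-E. These were 5.43% and 2.33% of the pathway over Y-A, beside 2.22% and 3.61% of all tested genes, and 6.20% and 13.2% over Y-E, beside 5.77% and 8.68%. Without Y-E replicate 6, 4 fell over Y-A and 18 over Y-E. The pathway shares genes with the lists above, so it is not separate evidence. ZAP70, LAT, PRKCQ and the beta row ENSBGRG00000002922 were among those rising in both comparisons, and LCK among those rising over Y-E. NFATC3, VAV1 and LCP2 were among those falling over Y-E. FOS, an immediate early gene, rose from 44.7 ± 15.6 to 342 ± 390 CPM over Y-A (log2 2.94, adjusted p = 0.0067), with an SD in Y-P larger than its mean. Over Y-E the rise of FOS was log2 2.96 (adjusted p = 0.0021). ENSBGRG00000007369, a row with no gene name, rose by log2 0.69 over Y-A (adjusted p = 0.0093) and 0.56 over Y-E (adjusted p = 0.0118). NFKB1 fell by 0.57 on the log2 scale over Y-A (adjusted p = 0.0026) and by 0.63 over Y-E. PIK3CD, the leukocyte PI3 kinase, fell by 0.85 over Y-E (adjusted p = 0.0019). PIK3R3 was low and fell from 2.71 to 1.22 CPM over Y-A (log2 -1.15, adjusted p = 0.0367). RHOA, high in FPKM, did not pass over Y-A (-0.10) or Y-E (-0.26). The pathway median was 0.09 over Y-A and 0.10 over Y-E.

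Marker lists of blood cell types moved alongside, and their part in the results above was not tested. Of all tested genes, 2.22% rose and 3.61% fell over Y-A, and 5.77% rose and 8.68% fell over Y-E. Other T cell markers (6 tested, LCK shared with the signalling list) summed to 973 to 1065 CPM in Y-A, against 885 to 1128 in Y-E and 1210 to 1623 in Y-P, without overlap between Y-P and the other stages. Of the 6, LEF1 and TCF7 passed as higher over Y-A, and LEF1, TCF7 and LCK over Y-E. Without Y-E replicate 6, the 2 that passed over Y-E were LEF1 and IL7R. The 8 B cell markers summed to 677 to 2097 CPM in Y-A, against 578 to 1769 in Y-E and 770.4 to 2276 in Y-P, and none passed (edgeR, 0, 1 and 2 with an unadjusted p under 0.05 in the 3 comparisons). Their median log2 difference was 0.36 over Y-A and 0.52 over Y-E, beside 0.52 and 0.46 for the other T cell markers. The 4 tested markers of NK and cytotoxic cells ran from 112 to 246, 103 to 277 and 164 to 275 CPM, and none passed (edgeR, 0 with an unadjusted p under 0.05).

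The neutrophil list (5 tested) summed to 3625 to 9224 CPM in Y-A, against 4690 to 12388 in Y-E and 2639 to 5945 in Y-P. Over Y-E, 4 of the 5 fell, with a median log2 difference of -1.48, and over Y-A none passed (1 had an unadjusted p under 0.05), with a median of -0.78. Without Y-E replicate 6, 5 of the 5 fell over Y-E and MMP9 alone was higher in Y-E than in Y-A, where none had passed with it. Of 5 monocyte markers, CD68 fell over Y-E (summed 592 to 979, 509 to 1107 and 383 to 810 CPM in Y-A, Y-E and Y-P). All 4 reticulocyte markers fell over Y-A and 3 over Y-E. Without Y-E replicate 6 only 1 of them, HBM, fell over Y-E, and 3 (ALAS2, HBM and KLF1) were lower in Y-E than in Y-A, where none had passed with it. Of all 14653 genes tested without that library, 23 passed in either direction in Y-E vs Y-A and 2007 in Y-P vs Y-E. Of the platelet markers, TUBB1 and GP1BA of the 3 fell in Y-P over both Y-A and Y-E. No marker found in the table was at or under 3 counts in a whole stage. Higher summed T cell markers and lower summed neutrophil, reticulocyte and platelet markers thus stood beside the rise of CD3G, CD247 and CD5 in Y-P. The B cell markers also had positive median log2 differences, 0.36 over Y-A and 0.52 over Y-E, with overlapping sums. The monocyte markers had medians of -0.41 and -0.55.

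**Figure D5:**
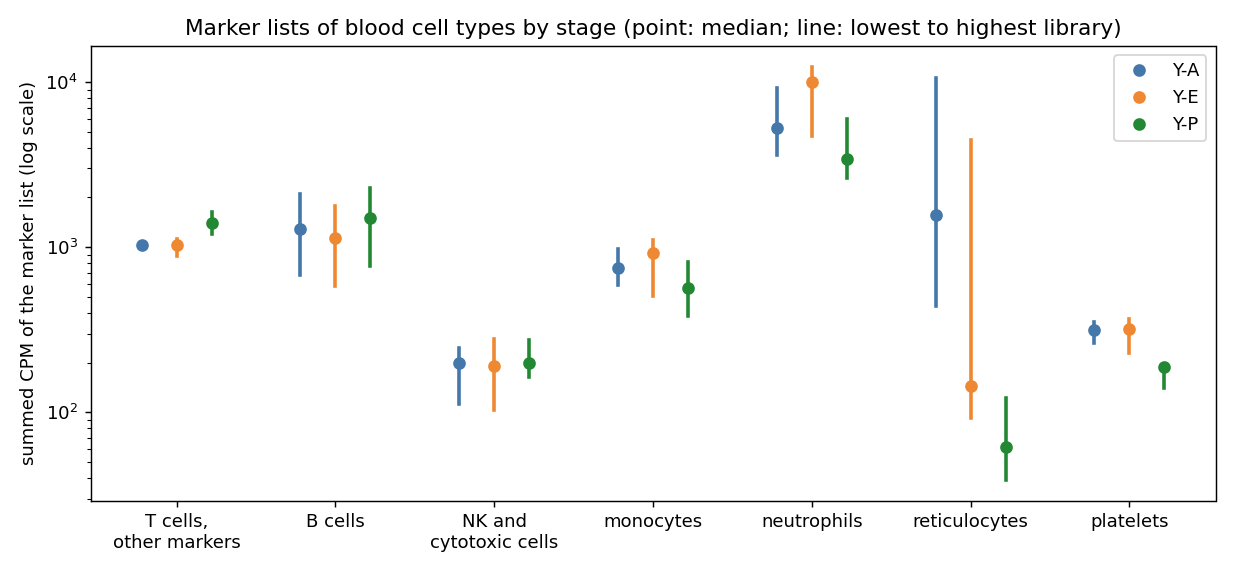
Summed CPM (vertical axis, log scale) of marker lists of 7 blood cell types in the 3 stages, as the median (point) and the lowest and highest of 6 libraries (line). The other T cell markers lie higher in Y-P, at 1210 to 1623, without overlap, while the neutrophil, reticulocyte and platelet lists lie lower in Y-P.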

How the data were processed

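RNA of whole blood was sequenced as poly(A) libraries in 18 samples, 6 per stage, grouped by the condition in the labels. Per the submitters' processing notes and the methods, the authors trimmed reads with cutadapt (1.9), aligned them with HISAT2 (2.2.1) to the Bos grunniens genome and ran StringTie (2.1.6). The deposited table gives per gene raw counts and, in separate columns, FPKM values, scaled by gene length and library size by the authors. Further columns of annotation were used to find genes. The counts were tested with edgeR (4.0.16, quasi-likelihood, R 4.3.3) after TMM normalization and filterByExpr, with stage as the only term and all 18 libraries in 1 fit, and p-values were adjusted by Benjamini-Hochberg over 14508 genes. DESeq2 (1.42.0), limma (3.58.1) on log2(FPKM + 1) and log2(FPKM + 0.1), library size alone, hemoglobin genes left out, no low-count filter, 2 stages in the fit, the replicate number as a block, and each of 18 fits that leave out 1 library were alternatives. The block together with Y-E replicate 6 left out, and the antigen receptor rows, were chosen after seeing the data. The scripts were tested on simulated data. Intervals are 95% intervals from the fit.

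The 10 genes, the other gene lists and the marker lists were chosen with earlier results of these data known. The genes named from a list were the 2 with the smallest p among those passing in each direction and the 2 of highest mean FPKM, with further passing genes named by symbol. The labels do not say that replicates were separate animals within a stage, so p-values measure the spread between these samples. Neither the pregnancy date nor blood cell counts were used here.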

Additional observations from a re-analysis of the deposited data

Results flagged for a closer look

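In 60 groups of 6 libraries (10 genes in CPM and 10 ratios, 3 stages each), 4 had 1 library far from the other 5 by Dixon's test, where about 1 in 20 groups, or 3, would do so by chance. CD3G had 296 CPM in Y-P replicate 5, beside 143 to 192 in the other Y-P libraries, and that library was the highest of Y-P in 9 of the 10 genes. Without it CD3G still passed in both pregnancy comparisons. The CD3G to CD3E ratio was 0.322 in Y-E replicate 6 and 0.202 to 0.229 in the other Y-E libraries, and the CD28 to CD3E ratio was 0.138 there and 0.0846 to 0.104 in the others. Y-E replicate 6 is the library whose hemoglobin share was 8.36%. The CD4 to CD3E ratio was 0.460 in Y-A replicate 4, beside 0.770 to 0.884 in the other Y-A libraries. No explanation of these 4 values was tested.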

How the results depend on the processing

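Over Y-A, the number of the 7 genes found by name that passed was 2, and it became 5 with DESeq2, 6 with library size alone, 6 with limma on log2(FPKM + 0.1), 6 on log2(FPKM + 1), 4 with the replicate block, which added CD3D and CD4, and 1 with 2 stages in the fit, where CD3G alone of all 10 passed. Over Y-E it was 3, and became 5 with library size alone and 5 with limma at either pseudocount, which added CD3D and CD4, and 2 with 2 stages in the fit, which lost CD3E. Leaving out 1 library gave 0 in each fit for Y-E vs Y-A, 1 to 4 over Y-A and 1 to 4 over Y-E. Over Y-A the count was 1 without Y-A replicate 1 or 6 and 4 without Y-P replicate 1, which added CD3D and CD3E, and over Y-E it was 1 without Y-P replicate 5. The cause was not tested. CD3G passed in both pregnancy comparisons under every setting named here. Over all tested genes, in either direction, 846 of 14508 passed over Y-A in the main fit. This became 1489 with DESeq2, 1333 with library size alone, and 1928 and 2116 with limma at pseudocounts 0.1 and 1. With the block it was 1282, and with 2 stages 482 of 13991. It was 588 of 14668 without Y-A replicate 1, 551 of 14667 without Y-A replicate 6 and 1077 of 14635 without Y-P replicate 1. Over Y-E, 2096 passed in the main fit, 2553 with library size alone, 2931 and 3070 with limma, and 1747 of 14027 with 2 stages. Without Y-P replicate 5 it was 1616 of 14656. The number of members passing thus moved alongside the number of all genes passing.

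Same-numbered libraries of 2 stages deviated together in part: the median correlation of their deviations was 0.352 for Y-E and Y-A, 0.165 for Y-P and Y-A and 0.131 for Y-P and Y-E, with 5, 4 and 4 of 6 pairs over 0.1, and 22 of 36 best matches shared the number. Each best match was picked among the 6 libraries of the other stage, so shared numbers were more frequent than unrelated numbering would give. The numbers may therefore mark animals, but the labels do not say so and not every pair was over 0.1. The main fit did not take them as pairs and may ignore a pairing. With the replicate block, 0, 4 and 3 of the 7 passed in the 3 comparisons, and with Y-E replicate 6 left out as well, chosen after seeing the data, 0, 3 and 2. Of all tested genes, 14, 1282 and 2608 of 14508 passed with the block. With Y-E replicate 6 left out as well, 54, 1055 and 2232 of 14653 did.

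Of the other named calls over Y-A, FOS, NFKB1 and ENSBGRG00000007369 held in all 18 fits that leave out 1 library, and ZAP70 and LAT held in 12, CD27 in 11 and PIK3R3 in 9. Over Y-E, ZAP70, NFATC3, VAV1, CD27, FOS, NFKB1, PIK3CD and PARK7 held in all 18, LAT in 17, BTLA in 14, PTPN11 and SIT1 in 11 and LCP2 in 7.

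Signs turned only where the difference was small and did not pass, LCP2 over Y-A included. Over Y-A with library size alone, log2(FPKM + 0.1) and log2(FPKM + 1), CD8B became 0.135, 0.119 and 0.117 (0.0026 with no low-count filter), LCP2 0.0156, 0.0486 and 0.0485, PTPN6 0.113, 0.156 and 0.155, UNC119 0.0482, 0.104 and 0.103 and RHOA 0.0531, 0.0820 and 0.0819. Over Y-E, CD80 became 0.0852, 0.136 and 0.133, and 0.0369 with the block and replicate 6 left out, where CD8B became -0.0153. In Y-E vs Y-A, CD8A became 0.0553 in that fit, and TP53I3 -0.0194 without the hemoglobin genes and -0.0039 in that fit. Leaving out 1 library, the Y-E vs Y-A values ran from -0.0973 to 0.0183 for CD3E, -0.0911 to 0.0405 for CD247, -0.184 to 0.0866 for CD8A, -0.209 to 0.0625 for CD8B, -0.119 to 0.0167 for CD28, -0.143 to 0.0837 for CD27, -0.172 to 0.0049 for TRDC, -0.351 to 0.138 for SOX13, -0.0331 to 0.200 for UNC119 and -0.0488 to 0.0409 for TP53I3. Over Y-A they ran from -0.0115 to 0.222 for CD8A, -0.191 to 0.1197 for CD8B, -0.0043 to 0.219 for CD80 and -0.101 to 0.0025 for PTPN6, and over Y-E from -0.102 to 0.208 for CD8B.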
